A study of Mus musculus with 2 samples.

Results

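The Mir15, Mir16 and Mir195a genes encode one family of microRNAs, and 5 such genes were followed here: Mir15a, Mir15b, Mir16-1, Mir16-2 and Mir195a. They were taken by name from the 1973 microRNA genes in the count tables, and all 5 were found. The data are small-RNA sequencing of total RNA from the facial prominences of B6NCrl mouse embryos at embryonic day 11.5, in the size range under 30 bases. The only group had 2 biological replicates. Replicate 1 pooled tissue of 109 healthy embryos, male and female, and replicate 2 pooled tissue of 88. No treatment or altered genotype is named, so no test between conditions exists. The comparisons are between genes within a library and between the pools.

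A microRNA is cut from a hairpin in a longer transcript, and 1 arm of the hairpin guides a silencing complex to messenger RNAs that match the seed, bases 2 to 8 of the mature sequence. The Mir15 and Mir16 microRNAs are known as brakes on the cell cycle: their established targets include cyclin D1, cyclin E1 and Cdk6, which drive cells from G1 into DNA synthesis, and the survival gene Bcl2. The Mir15a and Mir16-1 pair is known from its deletion in chronic lymphocytic leukaemia, and Mir195a from the exit of heart muscle cells from the cell cycle after birth.

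The 5p sequences of the family are printed first because they fix which reads can be told apart. All 5 genes matched a mature entry of RefSeq (build GRCm38.p6). Each is shown 5′ to 3′ with the seed in capitals. Those of Mir322 and Mir497, which are not among the 5 genes, stand below them because they carry the same seed.

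miR-15a-5p: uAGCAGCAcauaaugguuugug
miR-15b-5p: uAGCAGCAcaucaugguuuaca
miR-16-5p, from Mir16-1 and from Mir16-2: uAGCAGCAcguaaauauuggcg
miR-195a-5p: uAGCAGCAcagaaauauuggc
miR-322-5p: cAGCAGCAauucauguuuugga
miR-497a-5p: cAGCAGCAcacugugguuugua

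The sequences of the 5 genes fell into pairs. Counted from 1 at the 5′ end, miR-15a-5p and miR-15b-5p were identical at 18 of 22 positions and differed by A12C, G20A, U21C and G22A. miR-16-5p and miR-195a-5p were identical at 19 of 21 positions and differed by G10A and U11G. Between these pairs, miR-15a-5p and miR-16-5p were identical at 16 of 22 positions. Of the sequences from other genes, miR-497a-5p was identical to miR-15a-5p at 17 of 22 positions and to miR-16-5p at 11 of 22. In the RefSeq table, which holds 1738 mature entries and 1005 hairpins, the 5p sequences of Mir15a, Mir15b and Mir195a each occurred at 1 gene. The longest run that miR-15a-5p and miR-15b-5p shared with another gene was 11 bases. For miR-195a-5p it was 16 bases, with Mir195b.

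miR-16-5p is the exception, since it occurred at both Mir16-1 and Mir16-2. The hairpins of these genes are shown with the longest run that they share in capitals.

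Mir16-1: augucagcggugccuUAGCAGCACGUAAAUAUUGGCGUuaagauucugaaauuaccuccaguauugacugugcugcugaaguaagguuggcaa
Mir16-2: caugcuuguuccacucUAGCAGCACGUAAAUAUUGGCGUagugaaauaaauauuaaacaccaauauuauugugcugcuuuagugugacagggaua

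The shared run was 23 bases long and held the whole of miR-16-5p. A read that lies within it matches both hairpins. The 3p arms differed. They are printed with their longest common run, of 9 bases, in capitals, because each arm occurred at 1 gene of the RefSeq table. Copies elsewhere in the genome were not searched for.

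miR-16-1-3p: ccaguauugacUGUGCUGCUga
miR-16-2-3p: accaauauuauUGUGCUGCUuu

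The count tables hold reads placed at several positions as a class of their own, outside the counts of any gene. That class held 1081615 reads in replicate 1 and 1388721 in replicate 2, or 32.9% and 33.3% of the mapped reads. How many of them were miR-16-5p was not tested, because the tables do not divide the class by sequence. The counts of Mir16-1 and Mir16-2 below are therefore counts of reads placed at 1 gene, not levels of miR-16-5p.

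The genes lie in 3 places in the genome (GRCm38, GENCODE M21, 1-based). Mir15a (chromosome 14, 61632027 to 61632110, minus strand) and Mir16-1 (61631880 to 61631972) lie 54 bases apart in Dleu2, a long non-coding RNA gene. Mir15a was in an intron of every Dleu2 transcript that spans it, and Mir16-1 overlapped an exon of 1 of the 9 that span it. Mir15b (chromosome 3, 69009772 to 69009835, plus strand) and Mir16-2 (69009902 to 69009996) lie 66 bases apart in an intron of Smc4, which encodes a subunit of the condensin complex that compacts chromosomes. Mir195a (chromosome 11, 70235042 to 70235135, plus strand) overlapped no other annotated gene, and its neighbour Mir497 ended 241 bases before it. The map of the clusters shows that both Mir15 and Mir16 pairs have the same layout, with the Mir15 gene first in the direction of transcription.

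**Figure D1:**
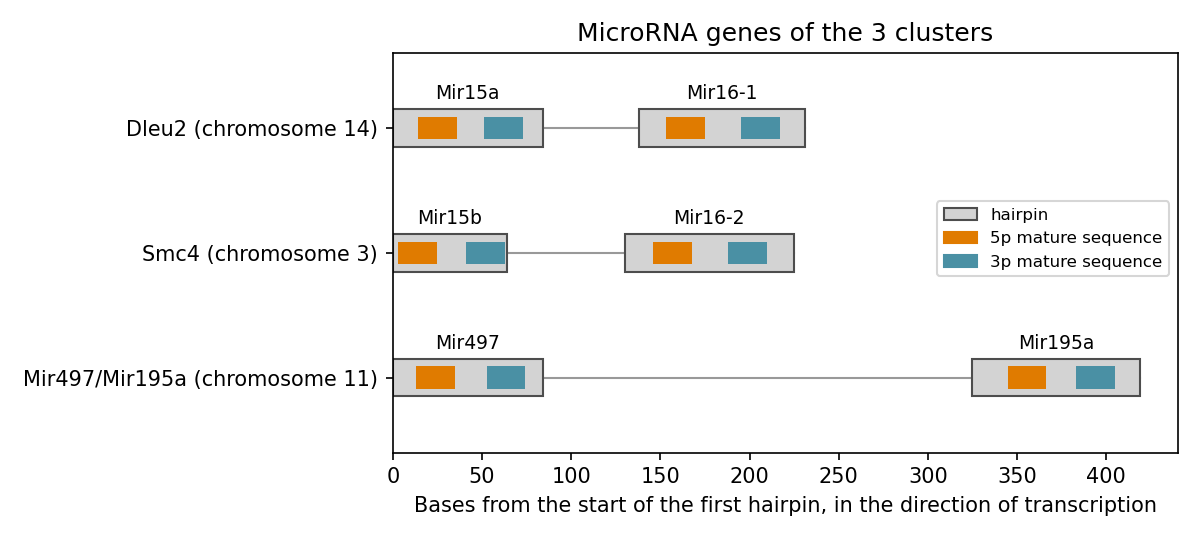
Position of the hairpins (grey) and of their 5p and 3p mature sequences (orange and blue) in the 3 clusters, in bases from the start of the first hairpin in the direction of transcription. The hairpins of the Dleu2 and Smc4 pairs are 54 and 66 bases apart, and those of Mir497 and Mir195a are 241 bases apart.

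The sense strand of all microRNA genes received 1941745 counts in replicate 1 and 2319881 in replicate 2, and levels are given in CPM, the counts scaled to a total of 1000000. MicroRNAs known from the labelled tissue were present: all 7 listed mesenchymal genes reached at least 10 counts in both libraries, with summed levels of 52455 and 55790 CPM, and so did all 7 epithelial genes (33088 and 29540 CPM) and the endothelial Mir126a. The 2 erythroid genes also reached 10 counts in both libraries, with summed levels of 264 and 593 CPM. Of 8 measured heart and striated muscle genes, 5 did, and Mir133a-1 and Mir133a-2 were at 0. Their summed levels were 628 and 1494 CPM. Of 6 measured neural genes, 2 did, and Mir124a-3 was at 0. Their summed levels were 1415 and 1142 CPM. Of 3 measured leukocyte genes, 2 did, and Mir142b was at 0. Their summed levels were 393 and 476 CPM. The liver gene Mir122 stood at 16.0 and 44.0 CPM. A count of 0 does not show that a microRNA was absent, because reads placed at several positions are left out. In bulk tissue, fewer cells of a type and less RNA per cell cannot be told apart. A level also depends on ligation and amplification of the sequence and on whether its reads fit 1 position. All intervals are exact (Clopper-Pearson) 95% intervals for counting error alone, because no molecular identifiers are named.

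Mir15a had the highest level of the family by reads placed at 1 gene. It had 14814 counts in replicate 1 and 16629 in replicate 2. Its levels were 7629 CPM (7507 to 7753) and 7168 CPM (7060 to 7277), a mean of 7399 ± 326 CPM (SD, n = 2). It took rank 38 of the 1973 genes, directly below Mir149 at 7429 ± 1111 CPM and above Mir92-1, a member of the Mir17 cluster, at 7326 ± 618 CPM. The pool values of Mir149 and of Mir92-1 lay on both sides of those of Mir15a, so this order is within the spread of the pools.

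Its neighbour Mir16-1 had 5209 counts in replicate 1 and 6555 in replicate 2. Its levels were 2683 CPM (2610 to 2756) and 2826 CPM (2758 to 2895), with a mean of 2754 ± 101 CPM. Mir15b, the first gene of the Smc4 pair, had 5412 and 6576 counts. Its levels were 2787 CPM (2714 to 2862) and 2835 CPM (2767 to 2904), with a mean of 2811 ± 33.5 CPM. Both genes held adjacent ranks, 68 for Mir15b and 69 for Mir16-1, between Mir125b-1 at 2820 ± 138 CPM and Mir28a at 2673 ± 134 CPM.

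The lowest levels by reads placed at 1 gene were those of Mir195a and Mir16-2. Mir195a had 1254 counts in replicate 1 and 1641 in replicate 2, which were 646 CPM (611 to 683) and 707 CPM (674 to 742), with a mean of 677 ± 43.5 CPM. Mir16-2 had 1188 and 1558 counts, which were 612 CPM (578 to 648) and 672 CPM (639 to 706), with a mean of 642 ± 42.3 CPM. They took ranks 123 and 126. Mir665 (729 ± 66.4 CPM) and Mir598 (656 ± 31.9 CPM) enclosed Mir195a, and Mir204 (654 ± 242 CPM) and the epithelial Mir141 (623 ± 85.8 CPM) enclosed Mir16-2. In each of the 5 genes the opposite strand had 0 counts in both libraries, which (at 3 counts) allows a level of at most 1.55 CPM and 1.29 CPM.

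**Figure D2:**
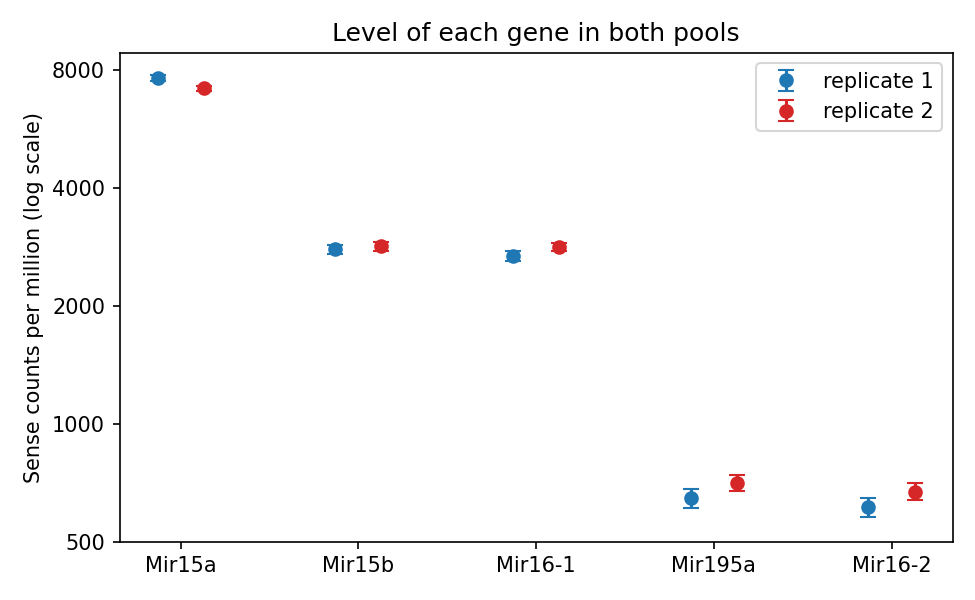
Level in CPM (sense counts, log scale) of each gene in replicate 1 (blue) and replicate 2 (red), with bars for the 95% counting interval. Mir15a stood at 7629 and 7168 CPM, Mir15b and Mir16-1 between 2683 and 2835 CPM, and Mir195a and Mir16-2 between 612 and 707 CPM.

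The 5 genes together took 1.44% of all sense counts in replicate 1 and 1.42% in replicate 2 (1.43% ± 0.0106). Mir15a alone made up 51.8% ± 1.90 of that sum, Mir15b 19.7% ± 0.381 and Mir16-1 19.3% ± 0.850. Mir195a made up 4.74% ± 0.340 and Mir16-2 4.49% ± 0.329. By location, the Dleu2 pair had 10153 ± 225 CPM (71.1% ± 1.05 of the sum) and the Smc4 pair 3453 ± 75.8 CPM (24.2% ± 0.710). These shares leave out every read placed at several positions, so they are not shares of the mature microRNAs.

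Levels were then compared between genes of the family. A difference was called when it had the same sign in both libraries and its size in each exceeded the log2 ratio between the pools of both genes. By this rule 8 of the 10 pairs of family genes differed. The share is near the background: of all pairs of genes whose counts averaged 100 or more, 89.2% passed. Mir15a exceeded Mir15b by a log2 ratio of 1.45 in replicate 1 and 1.34 in replicate 2 (mean 1.40 ± 0.08, or 2.63-fold), and Mir15b exceeded Mir195a by 2.11 and 2.00 (2.06 ± 0.08, or 4.16-fold).

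The 2 pairs that did not pass were neighbours in rank within the family. Mir15b and Mir16-1 differed by a log2 ratio of 0.06 in replicate 1 and 0.00 in replicate 2, against a log2 ratio between the pools of 0.07 for Mir16-1. Mir195a and Mir16-2 differed by 0.08 and 0.07, against 0.13. The order was therefore Mir15a, then Mir15b and Mir16-1, then Mir195a and Mir16-2, with no order resolved inside either of these pairs.

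**Figure D3:**
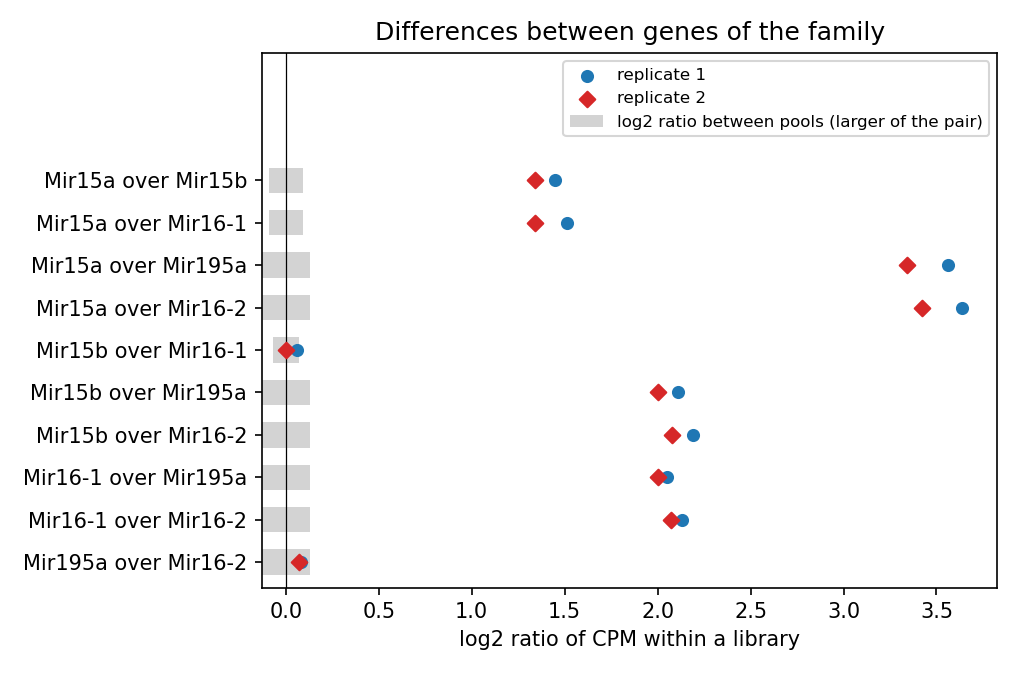
log2 ratio of CPM between each pair of family genes in replicate 1 (blue circles) and replicate 2 (red diamonds), with grey bars for the larger log2 ratio between the pools of the pair. The points of 8 pairs lie outside the bars, and those of Mir15b over Mir16-1 and of Mir195a over Mir16-2 lie inside.

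Partners in 1 primary transcript had unequal counts. In the Dleu2 pair, Mir15a exceeded Mir16-1 by a log2 ratio of 1.51 in replicate 1 and 1.34 in replicate 2 (1.43 ± 0.12, or 2.69-fold). In the Smc4 pair, Mir15b exceeded Mir16-2 by 2.19 and 2.08 (2.13 ± 0.08, or 4.38-fold). Both partner differences were larger than the ratios between pools. Among 289 pairs of genes on 1 strand at most 10 kb apart, 92.4% passed the same rule, with a median absolute log2 difference of 2.13. In both pairs the lower gene was the Mir16 gene, whose 5p sequence is the one shared between places. The part of the shared sequence in these differences was not tested.

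The step from the Mir15 to the Mir16 gene was larger in the Smc4 pair than in the Dleu2 pair, by a log2 ratio of 0.68 in replicate 1 and 0.73 in replicate 2 (0.71 ± 0.04, or 1.63-fold). This exceeded the largest ratio between pools of the 4 genes, 0.13. Across the pairs, Mir15a exceeded Mir15b 2.63-fold, and Mir16-1 exceeded Mir16-2 by a log2 ratio of 2.13 in replicate 1 and 2.07 in replicate 2 (2.10 ± 0.04, or 4.30-fold). Thus both genes of the Dleu2 pair were above their counterparts in Smc4 in both libraries. For the Mir16 genes this compares the reads that could be placed at 1 gene, which may include those of the 3p arms.

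Mir195a was set beside Mir497, its partner on chromosome 11. Mir497 has no line of its own in the tables used here, but Mir497b, annotated on the other strand over the same bases, had 1546 opposite-strand counts in replicate 1 and 1885 in replicate 2, with 2 sense counts in each. Read as Mir497, these are 796 and 813 CPM (804 ± 11.6). Mir497 was then above Mir195a by a log2 ratio of 0.30 in replicate 1 and 0.20 in replicate 2 (0.25 ± 0.07, or 1.19-fold), more than the 0.13 between pools. This was the smallest difference among the partners of the 3 clusters. The other differences each set a Mir15 gene against a Mir16 gene, whose counts leave out reads placed at several positions. The 3 differences are therefore not of like measures.

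By seed, the family is wider than these 5 genes. The RefSeq table held 11 genes with a mature sequence of this seed, and 6 of them are other genes: Mir322, Mir497, Mir195b, Mir6342, Mir6353 and Mir6419. Mir195b, Mir6342, Mir6353 and Mir6419 had 0 counts in both libraries. Mir322, on chromosome X, had 34746 and 30455 CPM in the pools and exceeded Mir15a by a log2 ratio of 2.14 ± 0.07 (4.40-fold). Of the sense counts assigned to the genes with this seed, the 5 genes held 29.2% in replicate 1 and 31.8% in replicate 2 (30.5% ± 1.82), and Mir322 held the other counts. With the opposite-strand counts credited to Mir497 the share was 30.0% ± 1.75. Counts of a gene include any reads of its other arm and leave out reads placed at several positions, such as any that lie within the shared miR-16-5p run, so these are shares of gene counts and not of molecules with the seed. miR-503-5p, from the neighbour of Mir322, differs from miR-15a-5p in the seed by A8G, and Mir503 stood at 1203 ± 96.3 CPM, below Mir16-1 and above Mir195a in both libraries.

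**Figure D4:**
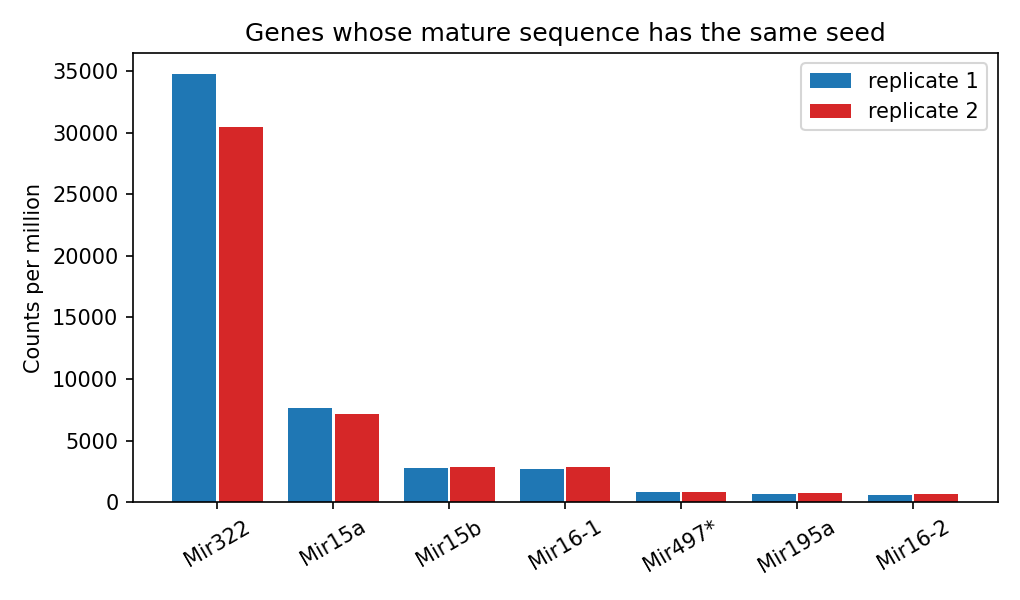
Level in CPM in replicate 1 (blue) and replicate 2 (red) of the genes with the same seed and a level above 0. Mir322 is highest at 34746 and 30455 CPM, Mir15a follows at 7629 and 7168 CPM, and Mir497, marked with an asterisk and taken from the opposite-strand counts of Mir497b, stands at 796 and 813 CPM.

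The pools were compared next, to ask how far the levels of the family repeat. All 5 genes had a mean count of at least 100, and none differed by over 2-fold between pools. Among all 257 genes with such counts, 1.95% did. Mir15a was lower in replicate 2, with a log2 ratio of -0.09 (-0.12 to -0.06). Mir16-1 was higher there by 0.07 (0.02 to 0.13), Mir16-2 by 0.13 (0.02 to 0.24) and Mir195a by 0.13 (0.02 to 0.24). Mir15b had a ratio of 0.02 (-0.03 to 0.08).

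The counting interval left out a ratio of 1 for 4 of the 5 genes, against 56.8% of the 257, so small differences beyond counting error were common in these libraries. The median absolute log2 ratio of the 257 genes was 0.14. Of these genes, 18 had a smaller absolute ratio than Mir15b, 71 than Mir16-1 and 84 than Mir15a, while 124 had a smaller one than Mir195a and 127 than Mir16-2, which were thus near the median. The sum of the 5 genes had a log2 ratio of -0.02 (-0.04 to 0.01), that of the Dleu2 pair -0.05 (-0.07 to -0.02) and that of the Smc4 pair 0.04 (0.00 to 0.09). Directions hold only relative to the microRNA total. Scaled to all reads of a library, the median of the 257 genes moved from 0.01 to -0.25, and all 5 family genes were lower in replicate 2.

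**Figure D5:**
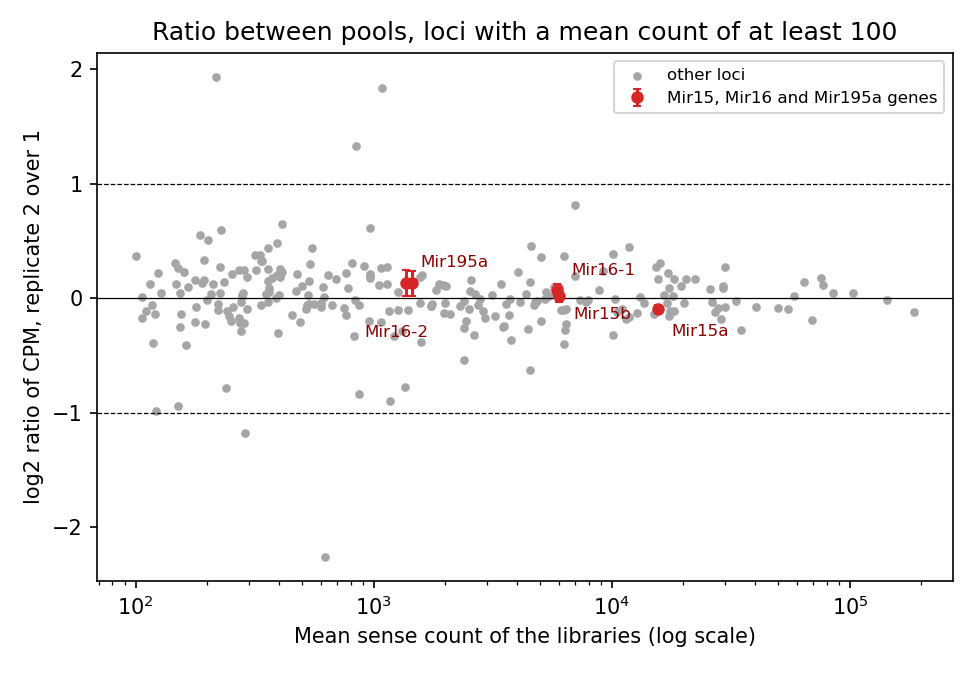
log2 ratio of CPM, replicate 2 over replicate 1, against the mean sense count (log scale) for 257 genes with a mean count of at least 100; family genes are red with 95% counting intervals, and dashed lines mark 2-fold. The 5 family genes lie between -0.09 and 0.13.

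Other microRNA genes known to act on cell cycle regulators gave the setting. Of 46 listed genes, 41 were in the tables; 33 had 10 counts or more in each library and 1, Mir195b, was at 0. Together they took 21.9% of sense counts in replicate 1 and 20.6% in replicate 2 (21.3% ± 0.914), against 1.43% for the 5 family genes. Mir17, Mir20a and Mir93, known to repress the cell cycle inhibitor Cdkn1a, stood at 67180 ± 577, 23448 ± 1001 and 15642 ± 181 CPM. Mir26b and Mirlet7g, whose families restrain proliferation in many tissues, had 19044 ± 704 and 16461 ± 2210 CPM. With Mir322 these were the 6 most abundant genes of the list.

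Of the listed genes, 8 were above Mir15a and 14 were above Mir16-2. The median level of the 41 genes was 119 CPM, that of the 5 family genes 2754 CPM, and that of the 708 genes with a count in either library 5.50 CPM. Levels and shares of the list leave out reads placed at several positions, and Mir497b stands in it by its sense strand, at 0.946 CPM. How many listed genes share a mature sequence with another gene was not tested, so the medians do not compare mature microRNAs. None of the 29 listed genes with a mean count of at least 100 was past 2-fold between the pools in either direction. Their median log2 ratio was -0.08, against 0.01 for the 257 genes, and their counting interval lay above a ratio of 1 for 3 genes and below it for 13. In all 257 genes it lay above for 77 and below for 69.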

How the data were processed

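Raw counts per microRNA gene were deposited by the authors for mm10 with GENCODE M4, per the text that accompanies each table. Which aligner and counter made them is not given in the sources used here. A table holds 3 columns of counts, with 4 lines for reads that name no gene. The sense column was used, and it held 40.8% of 4755968 reads in replicate 1 and 34.2% of 6781929 in replicate 2. Symbols came from GENCODE M21, matched without versions (1894 of 1973 identifiers; the other 79 held 4 counts). Sequences were copied from RefSeq. The hairpin of Mir15a was not among them, so its mature sequences alone stood for it in the search for shared runs.

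The libraries were counted as 2 replicates because the labels number them as separate biological replicates. Their counts differed beyond sampling error (chi-square 14731, 362 degrees of freedom), which shows only that the files do not hold the same library under both names; as pools with 1 donor entry, their spread may be partly technical. With 1 group, edgeR 4.0.16 and DESeq2 1.42.0 (R 4.3.3) gave only scaling factors. Ratios between pools were taken where counts averaged 100 or more. The ratio between pools and its interval were tested on simulated counts, and the rule for pairs on set values. The simulated counts varied by counting error alone, so that test cannot speak to spread between the pools beyond it. Other steps were not tested in this way. Family genes, lists and rules were chosen with earlier results of these data known. Named were the 5 genes, seed genes and neighbours within 10 kb, genes of adjacent rank, and the 6 most abundant listed genes. Alternatives were other scalings, count minimums, fold limits, strand columns and 1 library left out. Intervals came from scipy 1.17.1 and plots from matplotlib 3.10.9, under Python 3.11.15 with pandas 2.3.3.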

Additional observations from a re-analysis of the deposited data

Results flagged for a closer look

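Opposite-strand counts lie outside the sense counts on which the levels rest. At Mir497b, which covers Mir497 on the other strand beside Mir195a, they came to 1546 in replicate 1 and 1885 in replicate 2. Both are far above the limit of 3 counts set for a count of 0. At the 5 family genes the same column held 0 counts in both libraries.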

How the results depend on the processing

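With TMM factors or DESeq2 size factors, every level and ratio of the family kept its direction and call. Scaled to all reads, levels were 2783 CPM for Mir15a, 1054 for Mir15b, 1031 for Mir16-1, 253 for Mir195a, 240 for Mir16-2 and 5361 for the sum, by construction of the larger total. The log2 ratio between pools then turned to -0.18 for Mir16-1, -0.23 for Mir15b, -0.12 for Mir16-2 and -0.12 for Mir195a. Counts irrespective of strand gave 2723 CPM for Mir15b and 13834 CPM for the sum, past their SD, since the total grows by the opposite strand. The number of all genes past 2-fold, 5, was 13 with a mean count of at least 20, 3 with at least 500, 90 with at least 1 count in each library, 11 with all reads and 16 past 1.5-fold; no family gene was among those past the limit in any of these settings. The number of called pairs was 8 under every scaling, an alternative added after the data were seen; a scaling factor cancels in a difference within a library and moves only the ratio between pools, so this says little about stability. With either library left out, the levels and differences listed stayed within 1 SD of their means, as they must with 2 libraries, so this gives no replicate check. Reads placed at several positions limit Mir16-1 and Mir16-2, and no alternative restores them.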
